A study of Mus musculus with 12 samples.

Results

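The genes described here are 10 genes associated with Cajal-Retzius (CR) neurons, chosen by name: *Reln*, *Trp73*, *Lhx1*, *Lhx5*, the Ebf family genes *Ebf1*, *Ebf2* and *Ebf3*, *Nhlh2*, *Calb2* and *Cxcr4*. The rule used their names only, although the genes were chosen with earlier results of these data known. Of the 10, 9 were measured under their own name, each by a single probeset, among 14860 genes measured in all. *Calb2*, which encodes the calcium-binding protein calretinin, had no probeset listed under its name alone and is not analysed here. The question was whether *Reln* and the Ebf genes moved together or apart when Tbr1, Tbr2 or both were missing.

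RNA from E14.5 embryonic mouse neocortex was hybridized to Affymetrix Mouse Exon 1.0 ST arrays, 1 array for each embryo. Tbr1 KO embryos (n = 4) lacked the T-box factor gene *Tbr1* in all cells. Tbr2 cKO embryos (n = 2) carried floxed alleles of *Tbr2* (gene symbol *Eomes*), which were deleted by the Nes11-Cre transgene, a Cre driven from nestin sequences that act in neural progenitors. Tbr1/2 dKO embryos (n = 3) combined the *Tbr1* null alleles with the floxed *Tbr2* alleles and Nes11-Cre. Controls (n = 3) had intact *Tbr1* alleles and no recombined *Tbr2* allele, and the labels name them wild type. Genotypes were read from tail DNA. Each embryo was a biological replicate, and all 3 mutants share the same 3 controls. The series text speaks of 4 per genotype, whereas the labels and the methods have the numbers above.

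CR neurons are among the first neurons of the cortex. They arise mainly outside the dorsal neocortex, from the cortical hem, the septum, the ventral pallium and the thalamic eminence, and spread over the cortical surface in the marginal zone. There they secrete reelin, the large glycoprotein encoded by *Reln*, which binds the receptors ApoER2 (*Lrp8*) and Vldlr on radially migrating neurons and acts through the adaptor Dab1 to order the cortical layers. *Trp73* encodes p73, a p53 relative found in hem-derived CR neurons, and *Lhx1* and *Lhx5* encode LIM-homeodomain factors. The Ebf genes encode helix-loop-helix factors of early neurons, and *Nhlh2* encodes a basic helix-loop-helix factor of newly formed neurons. *Cxcr4* encodes the receptor for Cxcl12, a chemokine of the meninges that keeps CR neurons close to the pial surface. Most of these genes are also used outside CR neurons, so a signal from whole neocortex is not a count of CR cells.

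All values are log2 RMA values, that is, background-corrected, quantile-normalized and probe-summarised signals as the authors deposited them. One unit is a doubling of signal, and levels of different genes cannot be set against each other. The targeted genes were examined first. *Tbr1* read 9.76 to 10.06 in Tbr1 KO and 9.52 to 9.69 in Tbr1/2 dKO arrays, against 10.88 to 11.01 in controls. *Eomes* read 8.20 and 9.19 in Tbr2 cKO and 8.37 to 8.65 in Tbr1/2 dKO arrays, against 11.70 to 12.13 in controls. Both genes set the genotypes that lack them apart from controls, although the sources used here do not say whether the probes lie inside the deleted parts. In the Tbr2 cKO arrays *Tbr1* read 10.39 and 10.57, also below all controls, as 18.0% of all genes were there. It was not called changed in that comparison by the model described below. The paper reports less *Tbr1* RNA in Tbr2 cKO cortex, from an earlier experiment and from these same arrays. That genotype can therefore not be taken as one with an unchanged *Tbr1* signal. Array medians over all probesets were 8.15 to 8.25. One limma model was fitted to the 12 arrays, and a gene was called changed where its p, adjusted by Benjamini and Hochberg across the 14860 genes, was under 0.05.

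*Reln* and *Ebf3* moved in opposite directions in both genotypes that lack Tbr1, and in Tbr2 cKO *Ebf1* and *Ebf3* were called higher without a called change of *Reln*. In Tbr1 KO neocortex 1 of the 9 genes was called higher (*Ebf3*), where 0.215% of all genes were, and 1 was called lower (*Reln*), where 0.404% of all genes were. In Tbr2 cKO neocortex 2 were called higher (*Ebf1* and *Ebf3*), against 0.249% of all genes, and none was called lower, against 0.404%. In Tbr1/2 dKO neocortex 4 were called higher (*Ebf1*, *Ebf2*, *Ebf3* and *Nhlh2*), against 1.20% of all genes, and 1 lower (*Reln*), against 1.90%. *Trp73*, *Lhx1*, *Lhx5* and *Cxcr4* were not called in any comparison. The median log2 fold change of the 9 genes was -0.14 for Tbr1 KO, 0.19 for Tbr2 cKO and 0.10 for Tbr1/2 dKO, beside -0.01, -0.01 and 0.01 for all genes.

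**Figure D1:**
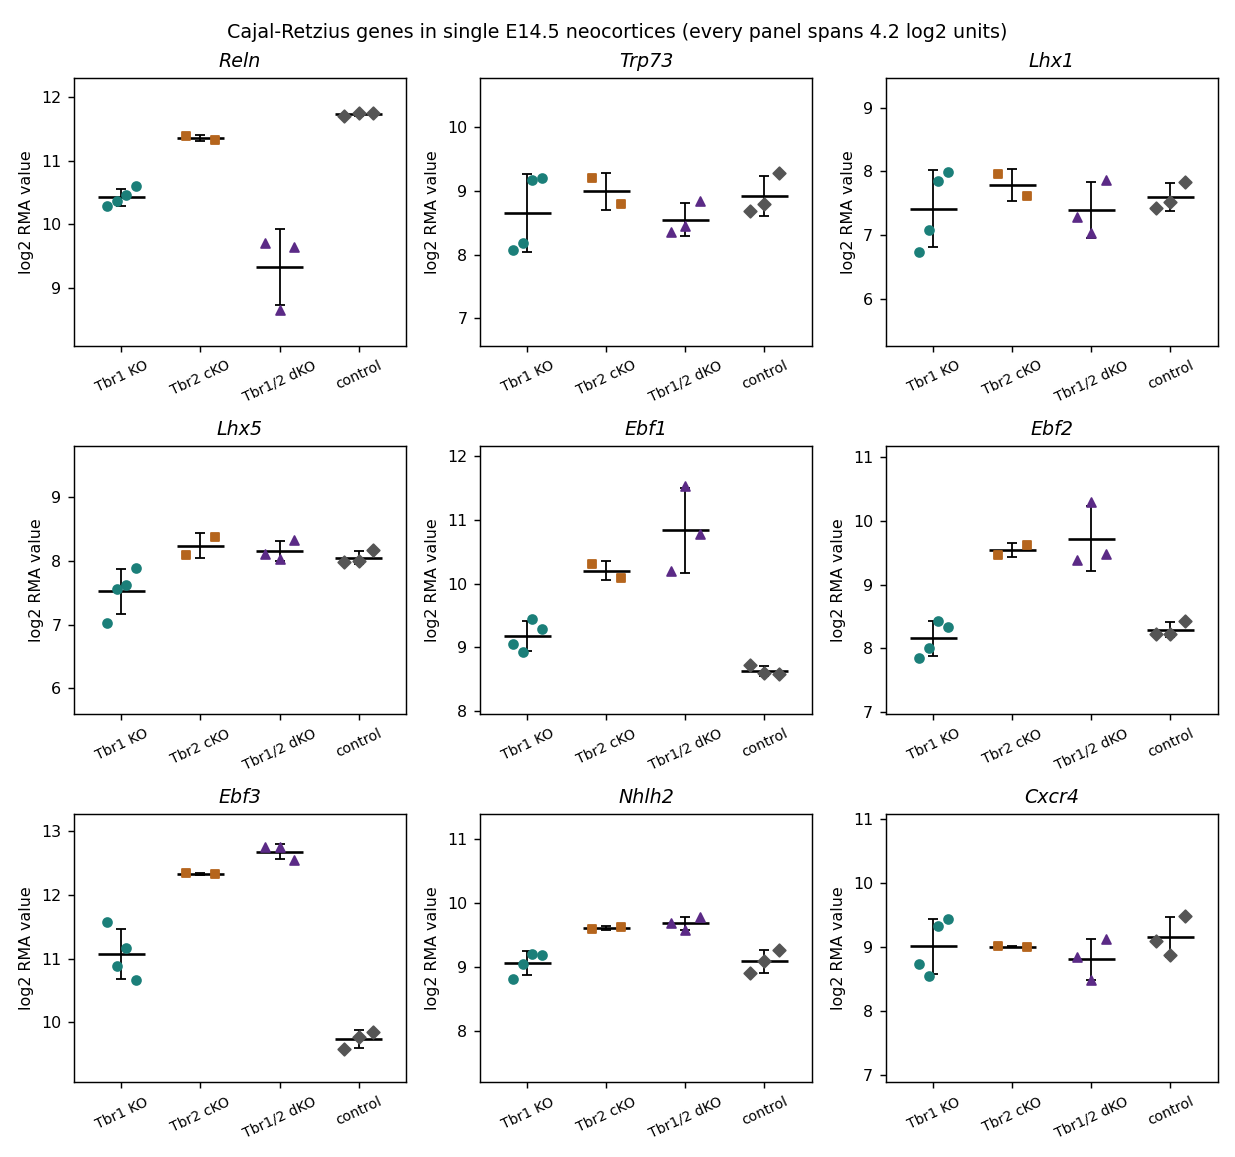
Log2 RMA value (vertical axis) of the 9 measured genes in each embryo, by genotype (horizontal axis). Points are single arrays, horizontal bars are means and whiskers are 1 SD. *Reln* is lowest in the Tbr1/2 dKO arrays (8.66 to 9.71) and *Ebf3* highest there (12.54 to 12.75), while *Trp73*, *Lhx1* and *Cxcr4* overlap across all 4 genotypes.

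*Reln* was reduced most where both factors were missing. It read 10.29, 10.36, 10.46 and 10.60 in the Tbr1 KO arrays, 11.39 and 11.32 in the Tbr2 cKO arrays, and 9.71, 8.66 and 9.65 in the Tbr1/2 dKO arrays, against 11.70, 11.74 and 11.74 in the controls. Every mutant array was below every control, the genotypes did not overlap with each other, and Tbr1/2 dKO replicate 2 was the lowest of all 12 arrays. In Tbr1 KO *Reln* fell by 1.30 on the log2 scale (SE, the standard error, 0.21, limma adjusted p = 0.0152), a 2.46-fold lower signal. In Tbr1/2 dKO it fell by 2.39 (SE 0.22, limma adjusted p = 0.000147), a 5.24-fold lower signal. The mean of 7 measured projection neuron genes was also lower there, at 12.12, 11.81 and 12.03 in Tbr1/2 dKO arrays, against 12.37 to 12.41 in controls. Of the 7, 2 were called lower, *Sox5* (-1.21) and *Bcl11b* (-0.78), both of deep-layer neurons, beside 1.90% of all genes. That mean was lowest in replicate 2, as *Reln* was. In Tbr1 KO (12.14 to 12.33) and Tbr2 cKO (12.15 and 12.22) it was below all controls too, with no gene of the list called, and its part in the *Reln* values was not tested. In bulk tissue, fewer *Reln* cells and less *Reln* RNA per cell cannot be told apart. Among all genes, *Reln* had the 10th lowest fold change in Tbr1 KO and the 5th lowest in Tbr1/2 dKO.

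In Tbr2 cKO neocortex the log2 fold change of *Reln* was -0.37 (95% interval -0.92 to 0.17, limma adjusted p = 0.687), and no change was called. From highest to lowest, the order of the mean *Reln* signals was therefore control, Tbr2 cKO, Tbr1 KO and Tbr1/2 dKO. The step from Tbr2 cKO to Tbr1 KO was not called either, with Tbr2 cKO higher by 0.92 (limma adjusted p = 0.143). Set directly against the single mutants, the Tbr1/2 dKO signal was lower than in Tbr1 KO by a log2 fold change of -1.09 (adjusted p = 0.0311) and lower than in Tbr2 cKO by -2.01 (adjusted p = 0.0101), both from limma. Of all genes, 0.646% were called lower in the first and 0.0808% in the second of these comparisons. The double mutant departed from the sum of the single-mutant changes by -0.72 (95% interval -1.42 to -0.01, unadjusted p = 0.0471, limma adjusted p = 0.999), which was not called.

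Some *Reln* calls were lost when 1 embryo was left out. The Tbr1 KO call was lost without Tbr1 KO replicate 1 (adjusted p = 0.053) and without any of the controls (0.0772, 0.0799 and 0.079), with log2 fold changes of -1.25 to -1.36 whichever embryo was left out. The difference between Tbr1/2 dKO and Tbr1 KO lost its call without any single Tbr1 KO, Tbr2 cKO or control embryo (adjusted p of 0.052 to 0.0797), and was -0.75 (adjusted p = 0.00225) without Tbr1/2 dKO replicate 2. With the replicate number as a block, which pairs these 2 genotypes, it was -1.03 (adjusted p = 0.104) and was not called. The difference between Tbr1/2 dKO and Tbr2 cKO lost its call without either Tbr2 cKO embryo (0.109 and 0.0731). The decrease in Tbr1/2 dKO against controls was called whichever embryo was left out, at -2.05 to -2.57.

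Genes that receive the reelin signal were called against controls only in Tbr1/2 dKO. Of 18 listed genes for reelin receptors and signalling, all measured, none was called in Tbr1 KO or Tbr2 cKO. In Tbr1/2 dKO 2 of the 18 were called lower, beside 1.90% of all genes. *Lrp8*, the ApoER2 receptor gene, read 11.64, 11.53 and 11.73 in Tbr1/2 dKO arrays, against 12.14, 12.11 and 12.16 in controls, and fell by 0.50 on the log2 scale (limma adjusted p = 0.000938). *Pik3r1*, which encodes a regulatory subunit of the PI3-kinase, fell by 0.66 (adjusted p = 0.0029). *Vldlr* and *Dab1* were not called there, at -0.39 (adjusted p = 0.0759) and -0.44 (adjusted p = 0.0805). In Tbr2 cKO *Lrp8* had a log2 fold change of -0.34 (adjusted p = 0.0554) and *Pik3r1* one of -0.42 (adjusted p = 0.145), neither called. The median of the list was -0.04 in Tbr1/2 dKO, beside 0.01 for all genes.

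*Ebf3* had the largest increase of all 14860 genes in Tbr1/2 dKO, the 2nd largest in Tbr2 cKO and the 8th largest in Tbr1 KO. It read 11.57, 10.89, 11.16 and 10.67 in the Tbr1 KO arrays, 12.34 and 12.32 in the Tbr2 cKO arrays, and 12.74, 12.75 and 12.54 in the Tbr1/2 dKO arrays, against 9.58, 9.78 and 9.85 in the controls. Each mutant array exceeded every control, and no 2 genotypes overlapped. *Ebf3* rose by a log2 fold change of 1.34 for Tbr1 KO (SE 0.17, adjusted p = 0.00356), 2.59 for Tbr2 cKO (0.21, adjusted p = 0.000188) and 2.94 for Tbr1/2 dKO (0.18, adjusted p = 8.01e-06), all from limma. These are signals 2.52-fold, 6.04-fold and 7.68-fold higher than in controls. The *Ebf3* increase was called in all 3 mutants whichever embryo was left out.

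The order of the mean *Ebf3* signals was Tbr1/2 dKO, Tbr2 cKO, Tbr1 KO and control. Only the step between the highest pair was not called, at a log2 difference of 0.35 (95% interval -0.11 to 0.80, limma adjusted p = 0.89). Against Tbr1 KO, *Ebf3* was higher in Tbr1/2 dKO by 1.61 (adjusted p = 0.00101) and in Tbr2 cKO by 1.26 (adjusted p = 0.0176), where 0.599% and 0.289% of all genes were called higher. The double mutant departed from the sum of the single-mutant increases of *Ebf3* by -0.99 (95% interval -1.58 to -0.40, unadjusted p = 0.00361), and with an adjusted p of 0.999 from limma the departure was not called.

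*Ebf1* read 9.05, 8.92, 9.44 and 9.29 in the Tbr1 KO arrays, 10.31 and 10.09 in the Tbr2 cKO arrays, and 10.19, 11.53 and 10.77 in the Tbr1/2 dKO arrays, against 8.73, 8.59 and 8.58 in the controls. All mutant arrays were above all controls, and the Tbr2 cKO and Tbr1/2 dKO arrays overlapped. *Ebf1* rose in Tbr2 cKO by a log2 fold change of 1.57 (SE 0.29, adjusted p = 0.0412) and in Tbr1/2 dKO by 2.20 (0.26, adjusted p = 0.000877), both from limma. In Tbr1 KO it had a log2 fold change of 0.54 (95% interval -0.0028 to 1.08, adjusted p = 0.771) and was not called. The Tbr2 cKO call was lost without either Tbr2 cKO embryo, any Tbr1 KO embryo, any control or Tbr1/2 dKO replicate 3 (adjusted p of 0.0579 to 0.361). It was also lost with each marker covariate, at 1.85 with the meningeal list (adjusted p = 0.0542), 1.62 with the hem and choroid plexus lists (0.105) and 1.88 with the subpallial and striatal lists (0.235). The mean of the subpallial and striatal lists was itself below all controls in every mutant array. The Tbr1/2 dKO call was made whichever embryo was left out, at 1.85 to 2.52, with the lowest value without replicate 2.

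*Ebf2* read 7.85, 8.02, 8.43 and 8.34 in the Tbr1 KO arrays, 9.47 and 9.62 in the Tbr2 cKO arrays, and 9.39, 10.30 and 9.48 in the Tbr1/2 dKO arrays, against 8.22, 8.23 and 8.44 in the controls. Tbr1 KO arrays overlapped the controls, and the arrays of both genotypes that lack Tbr2 lay above all the others. *Ebf2* rose in Tbr1/2 dKO by a log2 fold change of 1.43 (SE 0.22, limma adjusted p = 0.00453). In Tbr2 cKO its log2 fold change of 1.25 (SE 0.25, adjusted p = 0.0554) missed the threshold, and in Tbr1 KO it was -0.14 (95% interval -0.59 to 0.32, adjusted p = 0.97). Set against Tbr1 KO, *Ebf2* was higher in Tbr2 cKO by 1.39 (adjusted p = 0.027) and in Tbr1/2 dKO by 1.56 (adjusted p = 0.00393), both from limma. In Tbr2 cKO against controls, *Ebf2* was called without Tbr1/2 dKO replicate 1 (adjusted p = 0.0465) or replicate 2 (0.0051), embryos that enter that comparison only through the shared estimate of the spread.

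*Ebf1* was also higher in Tbr1/2 dKO than in Tbr1 KO, by a log2 fold change of 1.66 (limma adjusted p = 0.00829, and 0.0593 with the replicate number as a block, which was not called), and by 1.03 in Tbr2 cKO than in Tbr1 KO (adjusted p = 0.161), which was not called. Between Tbr1/2 dKO and Tbr2 cKO none of the 3 Ebf genes was called, where 0.0269% of all genes were called higher. The log2 differences there were 0.63 for *Ebf1* (95% interval -0.02 to 1.28), 0.18 for *Ebf2* (-0.37 to 0.72) and 0.35 for *Ebf3*. The remaining family member *Ebf4*, by contrast, read 9.75 to 10.05 in every mutant array, against 9.83 to 9.91 in controls, and was not called (adjusted p of 0.773 to 0.985).

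Genes whose products partner with Ebf factors were listed beside the family. *Zfp423* encodes a zinc finger protein that binds Ebf proteins, and read 10.78, 10.92 and 11.01 in Tbr1/2 dKO arrays, against 10.11, 10.15 and 10.20 in controls. It rose by a log2 fold change of 0.75 (SE 0.08, limma adjusted p = 0.000335). *Zfp521*, its paralog, rose by 0.62 (SE 0.12, adjusted p = 0.0168). Neither was called in Tbr1 KO (0.20 and 0.30) or in Tbr2 cKO (0.44, adjusted p = 0.0513, and 0.33). Of the 3 listed partners and relatives, therefore, 2 were called higher in Tbr1/2 dKO, beside 1.20% of all genes.

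The distance between *Reln* and each Ebf gene was described embryo by embryo. For each array, the log2 difference of *Reln* from the control mean was subtracted from that of the Ebf gene, so that a value above 0 means a gain of the Ebf gene relative to *Reln*. For *Ebf3* this gap was 2.63 ± 0.50 for Tbr1 KO (SD, n = 4), 2.97 ± 0.03 for Tbr2 cKO (SD, n = 2) and 5.33 ± 0.66 for Tbr1/2 dKO (SD, n = 3), with controls between -0.13 and 0.10. The lowest gap of any mutant embryo was 2.06. In Tbr1 KO the *Ebf3* gap came from both genes, at 1.34 for *Ebf3* and -1.30 for *Reln*, whereas in Tbr2 cKO it came mostly from *Ebf3*, at 2.59 and -0.37.

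The gap for *Ebf1* was 1.84 ± 0.18 for Tbr1 KO, 1.94 ± 0.10 for Tbr2 cKO and 4.59 ± 1.24 for Tbr1/2 dKO. For *Ebf2* it was 1.16 ± 0.17, 1.62 ± 0.16 and 3.82 ± 1.09 in the same order (SD, n = 4, 2 and 3). In Tbr1 KO the *Ebf2* gap came from *Reln* alone, since the mean of *Ebf2* was not above that of the controls there. Among the Tbr1/2 dKO embryos, replicate 2 was lowest in *Reln* and highest in *Ebf1* and *Ebf2*, and its *Ebf3* value of 12.75 was next to the 12.74 of replicate 1. Without it the log2 fold changes in Tbr1/2 dKO were -2.05 for *Reln*, 1.85 for *Ebf1* and 1.14 for *Ebf2*, all called.

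**Figure D2:**
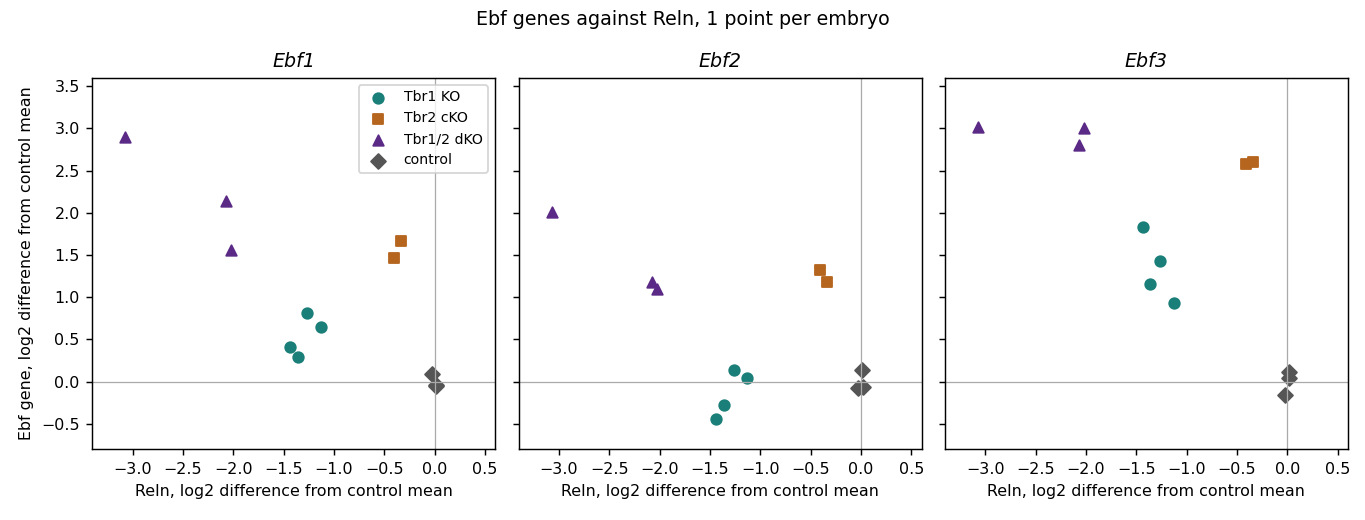
Each point is 1 embryo, with its log2 difference from the control mean for *Reln* on the horizontal axis and for *Ebf1*, *Ebf2* or *Ebf3* on the vertical axis. Controls sit near the crossing at 0. Tbr2 cKO embryos lie above the controls in all 3 Ebf genes with *Reln* at a log2 fold change of -0.37, Tbr1 KO embryos are shifted in *Reln* (-1.30) and *Ebf3* (1.34), and Tbr1/2 dKO embryos lie far from the controls on both axes.

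No overlap between mutant and control arrays was a weaker mark than a call. In Tbr1 KO, 2 of the 9 genes had all mutant arrays above all controls (*Ebf1* and *Ebf3*), beside 3.47% of all genes, and 2 had all below (*Reln* and *Lhx5*), beside 4.02%. In Tbr2 cKO 4 were above (the 3 Ebf genes and *Nhlh2*), beside 10.9%, and 1 was below (*Reln*), beside 18.0%. In Tbr1/2 dKO the same 4 were above, beside 8.58%, and *Reln* was below, beside 8.53%. The exact permutation tests of these single genes, which were two-sided, gave the smallest p that the numbers of embryos allow, which is 0.0571 for Tbr1 KO, 0.2 for Tbr2 cKO and 0.1 for Tbr1/2 dKO.

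The bases just before the annotated starts of *Reln* and *Ebf3* are shown because these genes moved apart most, with matches to CCCNNGGG, a core of the Ebf recognition sequence that reads the same on both strands, in capitals. Each sequence holds the 250 bases before a RefSeq start, 5′ to 3′ on the strand of the gene, in build GRCm38.p6.
Reln, chr5:22344706-22344955, minus strand: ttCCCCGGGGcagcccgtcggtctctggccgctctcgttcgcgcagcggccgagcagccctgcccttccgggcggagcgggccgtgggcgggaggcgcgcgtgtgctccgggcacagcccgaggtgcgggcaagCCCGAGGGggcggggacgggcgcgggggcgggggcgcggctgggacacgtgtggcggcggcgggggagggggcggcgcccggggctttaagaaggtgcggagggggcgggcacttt
Ebf3, chr7:137314446-137314695, minus strand: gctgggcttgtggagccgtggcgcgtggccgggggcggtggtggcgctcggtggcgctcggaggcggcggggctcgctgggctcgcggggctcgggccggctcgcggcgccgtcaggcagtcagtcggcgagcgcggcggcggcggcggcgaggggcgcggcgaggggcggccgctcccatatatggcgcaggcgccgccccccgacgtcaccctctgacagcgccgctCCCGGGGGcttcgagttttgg
The *Reln* window holds 2 matches, 248 to 241 and 116 to 109 bases before the start, and the *Ebf3* window holds 1, at 21 to 14 bases. The *Ebf3* window lies inside the annotated span of the gene, whose far end is at 137322805. Both windows are 80.0% G and C, against a median of 52.4% over all promoters.

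Promoter windows were found for 7 of the 10 genes, 9 windows in all. *Ebf2*, *Lhx5* and *Calb2* had no entry. CCCNNGGG was in 2 of the 9 windows and in 11.8% of 32851 mouse promoter windows of the same length. The T-box site AGGTGTGA, searched on both strands, was in none of the 9 and in 1.12% of all windows. Its shorter core GGTGTGA, which every such site contains, was in 1 window, of *Ebf1*, and in 3.33% of all. These matches describe the letters in the windows only.

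*Nhlh2* was called higher in Tbr1/2 dKO, where all 3 Ebf genes were. It read 8.81, 9.05, 9.20 and 9.19 in the Tbr1 KO arrays, 9.59 and 9.63 in the Tbr2 cKO arrays, and 9.68, 9.58 and 9.78 in the Tbr1/2 dKO arrays, against 8.91, 9.09 and 9.26 in the controls. Tbr1 KO arrays overlapped the controls, and all arrays of both genotypes that lack Tbr2 lay above them. *Nhlh2* rose in Tbr1/2 dKO by a log2 fold change of 0.60 (SE 0.11, limma adjusted p = 0.0153) and was higher there than in Tbr1 KO by 0.62 (adjusted p = 0.0188). In Tbr2 cKO its log2 fold change was 0.52 (SE 0.13, adjusted p = 0.135), not called, and in Tbr1 KO it was -0.03. The Tbr1/2 dKO call was lost without Tbr1/2 dKO replicate 3 (adjusted p = 0.0639), control replicate 1 (0.0734) or control replicate 2 (0.0572). The difference from Tbr1 KO lost its call without Tbr1 KO replicate 2 (0.0565), Tbr1/2 dKO replicate 1 (0.0505) or replicate 3 (0.0829).

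*Nhlh1*, the closest relative of *Nhlh2*, is a gene of newborn neurons. It read 12.52 to 12.68 in Tbr1 KO, 13.23 and 13.20 in Tbr2 cKO and 13.16 to 13.34 in Tbr1/2 dKO arrays, against 12.08 to 12.28 in controls. It was called higher in all 3 mutants, by log2 fold changes of 0.41 (adjusted p = 0.0221), 1.03 (0.000188) and 1.06 (1.66e-05), from limma. Of 8 measured genes of intermediate progenitors, 4 were called higher in Tbr1/2 dKO, beside 1.20% of all genes. They were *Dll1*, *Insm1*, *Mfng* and *Neurog1*, higher by 0.39 to 0.51. None of the 8 was called in Tbr1 KO or Tbr2 cKO.

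*Trp73*, *Lhx1* and *Lhx5*, the other transcription factor genes of CR neurons, were not called in any mutant. *Trp73* read 8.07, 8.17, 9.16 and 9.19 in the Tbr1 KO arrays, 9.19 and 8.78 in the Tbr2 cKO arrays, and 8.35, 8.45 and 8.84 in the Tbr1/2 dKO arrays, against 8.69, 8.78 and 9.27 in the controls. Its range within Tbr1 KO, 1.12, was larger than any difference between genotype means. The log2 fold changes were -0.26 for Tbr1 KO (95% interval -0.90 to 0.37), 0.07 for Tbr2 cKO (-0.69 to 0.84) and -0.37 for Tbr1/2 dKO (-1.05 to 0.31). A fall of *Trp73* as large as that of *Reln* lies outside the interval in Tbr1 KO and in Tbr1/2 dKO.

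*Lhx1* read 6.74, 7.08, 7.86 and 7.99 in the Tbr1 KO arrays, 7.96 and 7.61 in the Tbr2 cKO arrays, and 7.28, 7.03 and 7.87 in the Tbr1/2 dKO arrays, against 7.43, 7.52 and 7.84 in the controls. Tbr1 KO replicates 1 and 2 were below all controls, as they were in *Trp73*, while replicates 3 and 4 were above all controls. The log2 fold changes of *Lhx1* were -0.18 for Tbr1 KO (95% interval -0.83 to 0.48), 0.19 for Tbr2 cKO (-0.59 to 0.97) and -0.20 for Tbr1/2 dKO (-0.90 to 0.50).

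*Lhx5* read 7.03, 7.55, 7.61 and 7.88 in the Tbr1 KO arrays, 8.09 and 8.37 in the Tbr2 cKO arrays, and 8.10, 8.02 and 8.33 in the Tbr1/2 dKO arrays, against 7.99, 7.99 and 8.17 in the controls. The Tbr1 KO arrays were below all others, although only narrowly at 7.88. The log2 fold change of *Lhx5* in Tbr1 KO was -0.53 (95% interval -0.90 to -0.16), which limma gave an unadjusted p of 0.00902 (adjusted, 0.412). It was 0.18 in Tbr2 cKO (-0.26 to 0.62) and 0.10 in Tbr1/2 dKO (-0.29 to 0.49).

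LIM-homeodomain factors act with Ldb proteins, for which Lmo proteins compete. Of 8 measured genes of these cofactors, *Ldb2* was called lower in Tbr1/2 dKO, by -1.39 on the log2 scale (limma adjusted p = 0.0027), and *Lmo2* higher, by 0.88 (adjusted p = 0.0034). Of all genes, 1.90% were called lower and 1.20% higher in that comparison. In Tbr1 KO *Lmo1* was called higher, by 0.64, and *Lmo3* lower, by -0.70, beside 0.215% and 0.404% of all genes. None of the cofactor genes was called in Tbr2 cKO. Of the p53 family relatives and targets, *Trp63*, *Mdm2* and *Cdkn1a* were measured, and none was called in any mutant.

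*Cxcr4* read 8.73, 8.55, 9.32 and 9.43 in the Tbr1 KO arrays, 9.01 and 9.00 in the Tbr2 cKO arrays, and 8.84, 8.48 and 9.12 in the Tbr1/2 dKO arrays, against 9.10, 8.87 and 9.49 in the controls. All genotypes overlapped. The log2 fold changes were -0.14 for Tbr1 KO (95% interval -0.65 to 0.36), -0.15 for Tbr2 cKO (-0.76 to 0.46) and -0.34 for Tbr1/2 dKO (-0.89 to 0.20), with adjusted p of 0.672 to 0.97 from limma.

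A partner of *Cxcr4* was called lower in Tbr1/2 dKO. *Ackr3*, which encodes the second Cxcl12 receptor, read 8.56, 8.84 and 8.93 in Tbr1/2 dKO arrays, against 9.66, 9.65 and 9.77 in controls, and fell by 0.91 on the log2 scale (SE 0.10, limma adjusted p = 0.000486). *Cxcl12*, the ligand gene, read 8.23, 7.06 and 7.18 in Tbr1/2 dKO arrays, against 8.86, 8.52 and 8.52 in controls. Its log2 fold change of -1.14 (SE 0.28, adjusted p = 0.0558) missed the threshold. Neither was called in Tbr1 KO (-0.25 and -0.40) or Tbr2 cKO (-0.34 and -0.50).

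Other genes of CR neurons were compared as a list of 11, of which 10 were measured. None was called in Tbr1 KO or Tbr2 cKO, and 1 was called lower in Tbr1/2 dKO, beside 1.90% of all genes. It was *Ndnf*, which encodes a secreted neuronal protein. *Ndnf* read 7.06, 7.33 and 7.09 in Tbr1/2 dKO arrays, against 8.09, 8.51 and 8.32 in controls (log2 fold change -1.15, limma adjusted p = 0.00985). In Tbr1 KO it read 8.00, 7.69, 7.17 and 7.16, with a log2 fold change of -0.80 (adjusted p = 0.136). The median of the list was -0.28 for Tbr1 KO, 0.12 for Tbr2 cKO and 0.02 for Tbr1/2 dKO.

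**Figure D3:**
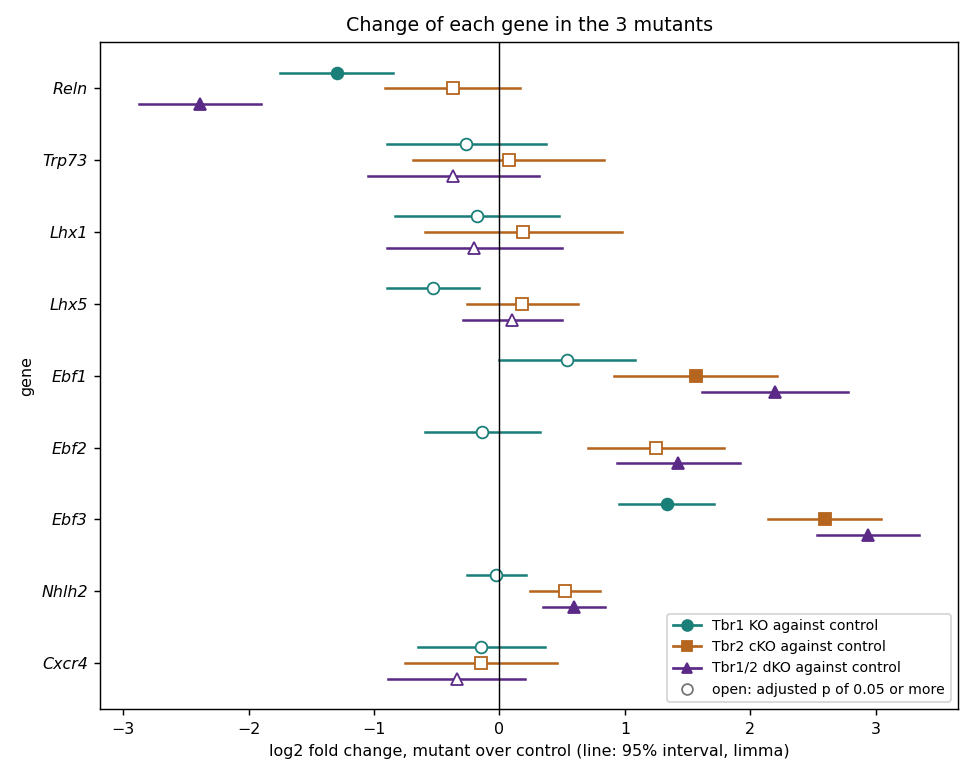
Log2 fold change of each gene (horizontal axis, mutant over control) in Tbr1 KO, Tbr2 cKO and Tbr1/2 dKO, with the 95% interval from limma. Filled symbols passed an adjusted p of 0.05. *Reln* lies left of 0 in all 3 mutants, *Ebf3* lies right of 0 in all 3, and the intervals of *Trp73*, *Lhx1* and *Cxcr4* include 0 in every mutant.

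Markers of tissue at the cortical edge were read in the same arrays. The mean of 14 measured cortical hem genes was 7.94, 7.94, 8.54 and 8.61 in Tbr1 KO, 8.57 and 8.13 in Tbr2 cKO, and 8.45, 7.87 and 8.49 in Tbr1/2 dKO arrays, against 7.72, 8.03 and 8.52 in controls. None of the 14 was called in any mutant. In all 4 genotypes the embryo with the highest hem mean was also the highest in *Trp73*, in *Lhx1* and in *Cxcr4*. For *Ebf1* and *Ebf2* this held in 1 of the 4 genotypes, and for *Reln* and *Ebf3* in 2. The embryo with the lowest hem mean was the lowest in *Reln* and in *Lhx1* in all 4 genotypes, in *Trp73* in 3, in *Cxcr4*, *Ebf2* and *Ebf3* in 2, and in *Ebf1* in 1. With the choroid plexus list *Reln* shared the highest embryo in 3 and the lowest in 4 of the 4 genotypes. With the mean of the hem and choroid plexus lists as a covariate, the log2 fold change of *Trp73* was -0.42 for Tbr1 KO, -0.37 for Tbr2 cKO and -0.54 for Tbr1/2 dKO, none of them called (adjusted p of 0.31 to 0.843). *Reln* (-1.38 and -2.48) and *Ebf3* (1.36 and 2.97) were called with this covariate in Tbr1 KO and Tbr1/2 dKO.

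**Figure D4:**
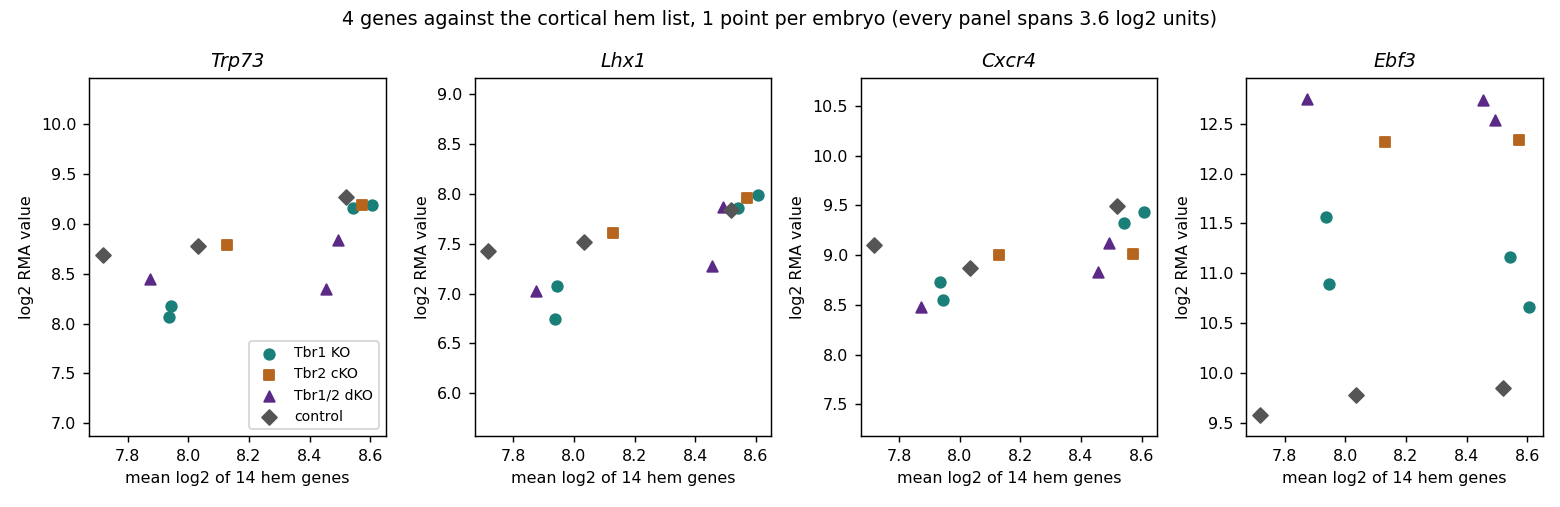
Log2 RMA value of *Trp73*, *Lhx1*, *Cxcr4* and *Ebf3* (vertical axes) against the mean log2 value of 14 cortical hem genes (horizontal axis), 1 point per embryo. In each genotype the embryo farthest to the right is the highest in *Trp73*, *Lhx1* and *Cxcr4*, and Tbr1 KO replicates 3 and 4 in *Trp73* (9.16 and 9.19) lie above replicates 1 and 2 (8.07 and 8.17), while *Ebf3* is set apart by genotype.

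The other marker lists were read beside the Ebf genes, some of which are also expressed in meningeal, striatal or thalamic cells. The meningeal mean (14 of 14 genes measured) was 7.98 to 8.07 in Tbr1 KO, 8.92 and 7.93 in Tbr2 cKO, and 8.89, 7.99 and 8.12 in Tbr1/2 dKO arrays, against 7.72 to 8.01 in controls. Of its genes 1 was called higher in Tbr1/2 dKO, *Crabp2*, by 1.52 on the log2 scale (adjusted p = 0.031), beside 1.20% of all genes. Tbr1/2 dKO replicate 1, the highest of its genotype in the meningeal mean, was the lowest of it in *Ebf1* and *Ebf2*. In *Ebf3* that embryo read 12.74, above replicate 3 (12.54) and next to replicate 2 (12.75). In Tbr2 cKO the embryo with the higher meningeal mean, replicate 1, was the higher in *Ebf1* (10.31 against 10.09) and *Ebf3* (12.34 against 12.32) and the lower in *Ebf2* (9.47 against 9.62). With the meningeal mean as a covariate the log2 fold changes of *Ebf1*, *Ebf2* and *Ebf3* in Tbr1/2 dKO were 2.44, 1.60 and 2.91, all called, while *Nhlh2* (0.57, adjusted p = 0.0678) was not.

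In the choroid plexus list (6 measured genes) Tbr2 cKO replicate 1 stood at 8.64 and replicate 2 at 6.94, with the other arrays between 6.59 and 7.31. The thalamic list (4 genes) averaged 8.72 to 9.07 in Tbr1 KO, 9.13 and 9.18 in Tbr2 cKO, and 9.08 to 9.37 in Tbr1/2 dKO arrays, against 8.74 to 9.04 in controls, with no gene called. *Ebf2* shared the highest embryo of that list in 3 and the lowest in 4 of the 4 genotypes, *Ebf1* in 1 and 1, and *Ebf3* in 2 and 1. In the striatal list (6 measured genes) *Drd1*, the dopamine receptor gene of striatal neurons, was called lower in all 3 mutants, by -1.58, -1.32 and -1.24 on the log2 scale. Of all genes, 0.404%, 0.404% and 1.90% were called lower. The other 5 genes of the list were not called, and the list medians were -0.07, -0.04 and 0.02. *Drd1* was a dim gene, at 5.32 to 6.30 in mutant arrays and 7.36 to 7.48 in controls, under array medians of 8.15 to 8.25. Of 8 measured subpallial genes 1 was called, *Lhx6*, lower in Tbr1/2 dKO by -0.67, beside 1.90% of all genes. With the mean of the subpallial and striatal lists as a covariate *Ebf1* (2.53, adjusted p = 0.0251) and *Ebf3* (3.23, adjusted p = 0.000539) were called in Tbr1/2 dKO, while *Ebf2* (1.35, adjusted p = 0.207) and *Nhlh2* (0.34, adjusted p = 0.606) were not. That mean was itself lower in every mutant array (8.25 to 8.64) than in every control (8.65 to 8.74). A fit with it therefore cannot tell the covariate from genotype, and a call lost with it does not point to these cells. The part of these other cells in the Ebf values was not tested further.

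Pearson correlations over the 12 arrays give the other genes most like *Reln* and most like *Ebf3*, as a description of arrays that differ by genotype. Most like *Reln* were *Neto2* (r = 0.94), *Sec24d* (0.94), *St3gal1* (0.93), *Kcnv1* (0.93) and *Wnt7b* (0.93). *Wnt7b*, a Wnt ligand gene of deep-layer neurons, read 8.13, 8.37 and 8.71 in Tbr1/2 dKO arrays, against 10.70, 10.58 and 10.65 in controls. Least like *Reln* were *Elof1* (r = -0.93), *Ccdc34* (-0.91), *Lsm14a* (-0.90), *Prkag1* (-0.90) and *Sirt1* (-0.90). The 10 genes were left out of this ranking. Of them, *Cxcr4* (r = 0.50) and *Trp73* (0.47) were the most like *Reln*, and *Ebf1* (-0.72) was the least.

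Most like *Ebf3* were *Nxph4* (r = 0.98), *Nhlh1* (0.98), *Esrrg* (0.97), *Tmc3* (0.96) and *Dusp4* (0.96). *Nxph4*, which encodes the neurexin ligand neurexophilin, read 12.16, 12.07 and 12.20 in Tbr1/2 dKO arrays, against 10.88, 10.85 and 11.00 in controls, and rose by a log2 fold change of 1.23. It was higher in Tbr1 KO by 0.47 and in Tbr2 cKO by 0.93, and was called in all 3 mutants. Least like *Ebf3* were *Foxred2* (r = -0.98), *Map2k6* (-0.96), *Sorl1* (-0.96), *Smarcd3* (-0.96) and *Sik2* (-0.96).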

How the data were processed

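Tbr1 KO (n = 4), Tbr2 cKO (n = 2), Tbr1/2 dKO (n = 3) and control (n = 3) neocortices were hybridized singly. The values deposited by the authors are log2 signals from RMA, run in oligo. The sources used here give no version, genome build or annotation release. Raw intensities were not used, and precision is limited by how many arrays there are. RMA tends to compress log2 fold changes of dim genes.

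Of 23332 probesets, 14996 had 1 gene symbol in the platform table, and the probeset with the highest mean was kept for each of the 14860 genes. Probesets of several symbols (1019) or none (7317) were left out. One linear model of the 4 genotypes was fitted with limma 3.58.1 (lmFit and eBayes) in R 4.3.3, and p-values were Benjamini-Hochberg adjusted over all genes. Replicate numbers were taken to pair Tbr1 KO with Tbr1/2 dKO, although the labels name no shared litter or batch. Same-numbered embryos of these genotypes deviated together from their genotype means (correlations over all genes of 0.178, 0.193 and 0.377). Some embryos of unlike number did so too, such as Tbr1 KO replicate 2 with Tbr1/2 dKO replicate 1 (0.2145) and Tbr1 KO replicate 4 with Tbr1/2 dKO replicate 3 (0.2127). Others correlated down to -0.4399, and the pairing is an assumption. Simulated data were used to test this fit. Exact permutation tests used scipy 1.17.1 and were two-sided. Sequences and coordinates came from RefSeq tables of GRCm38.p6.

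The genes and lists were chosen with earlier results of these data known. Named were all 10 genes, the targeted genes, up to 4 called genes of a list, and the 5 genes most and least like *Reln* and *Ebf3*. Named outside this rule, after their values were seen, were *Ebf4*, *Vldlr*, *Dab1*, *Cxcl12*, *Trp63*, *Mdm2*, *Cdkn1a* and, in genotypes where they were not called, *Ndnf*, *Ackr3*, *Zfp423* and *Zfp521*. Alternatives covered probeset choice, a filter on dim genes, normalization, prior, array weights, the compared groups alone, replicate number as a block, 3 marker covariates, thresholds and each embryo left out.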

Additional observations from a re-analysis of the deposited data

Results flagged for a closer look

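The effects of losing Tbr2 and of losing Tbr1 differed for 2 of the 9 genes in a direct test between the mutants. *Ebf2* was higher in Tbr2 cKO (9.47 and 9.62) than in Tbr1 KO (7.85 to 8.43) by 1.39 on the log2 scale (SE 0.23, limma adjusted p = 0.027). *Ebf3* was higher in Tbr2 cKO (12.34 and 12.32) than in Tbr1 KO (10.67 to 11.57) by 1.26 (SE 0.19, limma adjusted p = 0.0176). Of all genes, 0.289% were called higher and 0.296% lower in this comparison. In both genes both Tbr2 cKO embryos were above all 4 Tbr1 KO embryos. Both calls were lost without either Tbr2 cKO embryo (adjusted p of 0.128 to 0.198), and that of *Ebf2* also without Tbr1 KO replicate 1, 2 or 4 or control replicate 1 (0.053 to 0.0694). No single Tbr1 KO embryo stood apart from the other Tbr1 KO embryos in any of the 9 genes by Dixon's test. That test cannot see a split of 2 embryos against 2, such as that of *Trp73* (8.07 and 8.17 against 9.16 and 9.19). The genotypes with 3 or fewer embryos were not tested in this way.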

How the results depend on the processing

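The increase of *Ebf3* in all 3 mutants, and the decrease of *Reln* and increase of *Ebf1* in Tbr1/2 dKO, were called under every alternative run. Other calls were less stable, and the cause of each change below was not tested. The count of genes called lower in Tbr1 KO, 1, was 2 at an unadjusted p under 0.05 and ranged from 0 to 1 with an embryo left out. The count called higher in Tbr2 cKO, 2, was 1 with probesets of several symbols and with each of the 3 marker covariates, 4 with array weights and at an unadjusted p under 0.05, and ranged from 1 to 3 with an embryo left out. The count called higher in Tbr1/2 dKO, 4, was 2 with the subpallial and striatal covariate, which itself separated mutants from controls. Fitted from the compared groups alone, *Nhlh2* in Tbr1/2 dKO (adjusted p = 0.0508), *Reln* against Tbr1 KO (0.157) and against Tbr2 cKO (0.59), *Ebf1* (0.078) and *Nhlh2* (0.072) against Tbr1 KO, and *Ebf3* in Tbr2 cKO against Tbr1 KO (0.109) lost their calls. *Ebf2* in Tbr2 cKO, just over the threshold, was called in that fit (0.0136), with dim genes left out (0.0296), with array weights (0.0053), with a trended prior (0.0326), after centring the arrays (0.0457) and after another quantile normalization (0.0461).

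Apart from Tbr1 KO and Tbr1/2 dKO, no 2 genotypes were taken as paired by replicate number, although the block ties same-numbered embryos of every genotype. Of 15 pairs of embryos with the same number, 6 had deviations from their genotype means that correlated above 0.1 (range -0.12 to 0.38), and of 38 other pairs 6 did. With the replicate number as a block, 0 genes were called lower in Tbr1 KO (*Reln* -1.36, adjusted p = 0.0556), *Ebf1* was not called in Tbr2 cKO (1.60, adjusted p = 0.139), *Nhlh2* was (0.60, adjusted p = 0.0452), and *Cxcr4* changed sign there (0.035). Between mutants, the calls of *Reln* in both comparisons of Tbr1/2 dKO, of *Ebf1* in Tbr1/2 dKO against Tbr1 KO, and of *Ebf2* and *Ebf3* in Tbr2 cKO against Tbr1 KO were lost with the block. The counts of genes called in Tbr1/2 dKO against controls did not change.

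All sign changes were in values not called. With array weights in Tbr1 KO they were 0.059 for *Trp73*, 0.097 for *Lhx1*, 0.0010 for *Ebf2*, 0.086 for *Nhlh2* and 0.094 for *Cxcr4*. In Tbr2 cKO *Trp73* was -0.37 and *Lhx1* -0.27 with the hem and choroid plexus covariate, and *Trp73* was -0.42, *Lhx1* -0.37 and *Lhx5* -0.18 with the subpallial and striatal covariate, where *Lhx5* was -0.28 in Tbr1/2 dKO. With an embryo left out, the ranges in Tbr1 KO were -0.37 to 0.048 for *Lhx1*, -0.11 to 0.062 for *Nhlh2* and -0.29 to 0.024 for *Cxcr4*, and in Tbr2 cKO -0.13 to 0.28 for *Trp73* and -0.29 to 0.020 for *Cxcr4*.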
